A study of Mus musculus with 6 samples.

Results

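Atf4, Atf5, Ddit3, Trib3, Chac1, Asns, Psat1, Hspa5, Xbp1 and Herpud1 are 10 genes of the integrated stress response and the unfolded protein response. They were chosen by symbol in the annotation of GRCm38, and all 10 were found among the 53421 genes in the deposited table of read counts. RNA-seq was performed on granule cells (GCs) dissociated from the cerebellum of C57BL/6 mice (postnatal day 8 by the labels) and cultured. Lentivirus brought in a hairpin that targets Ythdf2, the gene of an m6A reader that destabilizes mRNA (shYthdf2, 3 libraries). The other 3 libraries came from GCs given a control hairpin (shCtrl). Cells of both groups had thus been through lentiviral infection and, by the study's methods, puromycin selection. By the library names a single Ythdf2 hairpin was used for RNA-seq, so that an effect of the knockdown (KD) of YTHDF2 and an effect of that hairpin on other targets cannot be told apart.

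In the integrated stress response, kinases that sense amino acid shortage, heme loss, viral RNA or unfolded proteins in the endoplasmic reticulum (ER) phosphorylate the translation factor eIF2alpha. Translation then falls for most mRNAs and rises for Atf4, whose product is a transcription factor that turns on genes for amino acid supply, further transcription factors and feedback inhibitors. The unfolded protein response has 3 sensors in the ER membrane, PERK (an eIF2alpha kinase, encoded by Eif2ak3), IRE1, which splices Xbp1 mRNA into its active form, and ATF6. ATF6 and spliced XBP1 raise the chaperones and degradation factors of the ER. Counts per gene show the amount of an mRNA and hold nothing on the translation of Atf4, the splicing of Xbp1 or the phosphorylation of eIF2alpha.

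Short promoter elements are known through which ATF4, ATF6 and XBP1 act on their targets. RefSeq promoters (GRCm38.p6, from 250 bases before to 50 after the start of transcription) were at hand for all 10 genes and were searched on both strands for 4 motifs. These were the C/EBP-ATF response element (CARE, TGATGNAA), which ATF4 binds with a C/EBP partner, a variant of it (TGNNGCAAT), the ER stress element (ERSE, CCAAT and CCACG with 9 bases between) and ERSE-II (ATTGG and CCACG with 1 base between). CARE was found in 3.97% of the 32851 promoters of all genes, its variant in 2.12%, ERSE in 0.119% and ERSE-II in 0.0365%. CARE and its variant can match at the same bases. The promoters of 4 genes that hold at least 1 of the motifs are shown 5′ to 3′ because they differ in which element they carry, with matches to any of the 4 motifs in capitals.
Asns (chr6:7693160-7693459, minus strand): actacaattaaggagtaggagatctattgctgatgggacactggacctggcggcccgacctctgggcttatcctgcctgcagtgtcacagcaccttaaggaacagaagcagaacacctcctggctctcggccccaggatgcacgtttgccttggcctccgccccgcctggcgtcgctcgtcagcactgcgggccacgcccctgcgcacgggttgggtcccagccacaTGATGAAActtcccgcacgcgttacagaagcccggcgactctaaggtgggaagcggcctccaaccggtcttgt
Chac1 (chr2:119350992-119351291, plus strand): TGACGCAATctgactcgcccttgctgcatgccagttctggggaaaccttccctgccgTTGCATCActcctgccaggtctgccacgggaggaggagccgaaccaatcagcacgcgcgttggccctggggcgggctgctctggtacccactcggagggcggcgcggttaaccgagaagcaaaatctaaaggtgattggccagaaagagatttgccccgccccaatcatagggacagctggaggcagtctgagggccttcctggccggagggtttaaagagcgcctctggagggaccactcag
Hspa5 (chr2:34771840-34772139, plus strand): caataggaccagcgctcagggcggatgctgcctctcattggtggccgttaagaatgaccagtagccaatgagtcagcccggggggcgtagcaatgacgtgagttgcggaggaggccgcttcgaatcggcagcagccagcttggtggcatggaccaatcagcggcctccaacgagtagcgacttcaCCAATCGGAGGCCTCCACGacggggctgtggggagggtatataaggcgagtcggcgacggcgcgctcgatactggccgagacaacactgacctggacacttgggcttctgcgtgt
Herpud1 (chr8:94386179-94386478, plus strand): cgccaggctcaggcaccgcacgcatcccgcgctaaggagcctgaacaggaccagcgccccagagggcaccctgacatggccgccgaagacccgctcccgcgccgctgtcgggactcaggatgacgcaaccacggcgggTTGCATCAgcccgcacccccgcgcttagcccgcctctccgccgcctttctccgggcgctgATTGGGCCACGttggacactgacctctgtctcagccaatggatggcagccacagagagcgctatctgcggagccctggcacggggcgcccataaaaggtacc
In Asns the CARE match began 23 bases before the start, and in Chac1 a CARE match began 193 bases and a variant 250 bases before it. Hspa5 had an ERSE match from 65 bases before the start, and Herpud1 had CARE at 112 and ERSE-II at 52 bases before it. Trib3 (CARE and the variant) and Psat1 (the variant, in 1 of its 2 promoters) also had matches. Atf4, Atf5 (with 2 promoters), Ddit3 and Xbp1 had no match in these windows. A match is a description of the letters and was not tested as a binding site.

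The labels contradict each other on which 3 libraries are the knockdown, since the titles and the genotype field call wild type the libraries whose names carry KD2_3, and call knockdown those named KDC. The library names were followed here, because one of the hairpins against Ythdf2 in the study's methods has the number 3 and the control is named shCtrl. If the titles are right instead, every direction below is inverted. The counts of Ythdf2 ran the way the library names say. Values are given as normalized counts, that is read counts scaled to a common library size, and coordinates are on GRCm38. A gene is called where its p from edgeR's quasi-likelihood test, adjusted over all genes tested, is under 0.05. Ythdf2 itself had 618, 841 and 628 normalized counts in shCtrl replicates 1, 2 and 4 (numbered as in the library names), and shYthdf2 had 501, 402 and 501. All shYthdf2 libraries were thus below all shCtrl libraries, at 67.2% of the control mean. On the log2 scale edgeR put the difference at -0.57 with a standard error of 0.16 (adjusted p = 0.125). Ythdf2 passed the threshold with DESeq2 (adjusted p = 0.0474), where 7.52% of all genes tested passed. In edgeR it passed with a term for replicate 2 (adjusted p = 0.0465), where 22.1% of all genes tested passed. It also passed in edgeR without both replicate 2 libraries (adjusted p = 0.00124), where 52.7% passed. In the last of these its log2 fold change was -0.32, and the differences within replicates 1, 2 and 4 were -0.30, -1.06 and -0.33.

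Replicate 2 stood apart in both groups. Within a group, the counts of replicates 1 and 4 differed by 3.34 (shYthdf2) and 4.68 (shCtrl) times sampling noise (chi-square per degree of freedom), and replicate 2 differed from them by 33.1 to 55.3 times. The libraries held 17246821 to 21546595 counts. Granule neuron markers were high (8 of 8 tested, summed level 9161 to 10233 CPM, the normalized share of a library). Of the 8, 0 was called. For 4 of the 8 the groups did not overlap, against 25.9% of all genes tested. Neurod1, Barhl1 and Cntn2 were lower in shYthdf2 and Reln was higher. Markers of other cells were present at lower levels, with oligodendrocyte lineage markers at 664 to 871 CPM in shYthdf2 and 244 to 861 in shCtrl, and astrocyte markers at 465 to 497 and 250 to 560. For both lists the lowest values were those of shCtrl replicates 1 and 4, and 0 of the 13 markers was called or at 0. The lists for other neurons, for progenitors, for microglia and for vascular cells with fibroblasts had 0 genes called. Microglia markers were at 37.1, 10.4 and 38.1 CPM in shYthdf2 replicates 1, 2 and 4 and at 7.38, 26.6 and 6.65 in shCtrl, so that they were higher in shYthdf2 in replicates 1 and 4 and lower in replicate 2. The sum for vascular cells and fibroblasts was highest in replicate 2 of both groups (364 and 294 CPM, against 114 to 151 in the other libraries). Most of it came from the collagen genes Col1a1 (166 and 148 CPM in replicate 2 of shYthdf2 and shCtrl) and Col1a2 (145 and 112). Flt1, Pdgfrb and Dcn were also highest in replicate 2 of both groups. Kdr and Pecam1 were highest in replicate 2 in shCtrl but lowest there in shYthdf2. The groups did not overlap for the sum of interneuron markers (398 to 481 CPM in shYthdf2, 333 to 364 in shCtrl). The same held for the sum of progenitor markers (3 of 5 tested, 7.93 to 9.29 and 4.20 to 7.35 CPM). Taken singly, it held for 1 of 5 interneuron markers (Gad1) and 2 of 5 progenitor markers. Slc6a5, another interneuron marker, was lower in shYthdf2 than in shCtrl in replicates 1 and 4. Gli1, a progenitor marker with very low values, was lower in shYthdf2 in every pair (0.110, 0.102 and 0.335 CPM, against 0.327, 0.255 and 0.463). Immediate-early genes, which neuronal activity induces, summed to 155 to 272 CPM in shYthdf2 and to 2644, 654 and 2584 in shCtrl replicates 1, 2 and 4, and 2 of 8 were called. The part of these cells and genes in the results below was not tested. In bulk RNA, fewer cells of a type and less RNA per cell cannot be told apart.

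All 10 genes passed the filter on low counts, and their mRNA levels spanned a wide range. Per exon length, Atf4 was the most abundant in the shCtrl libraries, at 102 to 109 normalized CPM per kb. Hspa5, which encodes the ER chaperone BiP, followed at 37.2 to 46.0. Xbp1 had 21.5 to 27.0 and Asns 21.3 to 22.2 on the same scale, ranges that overlapped. Herpud1 had 13.8 to 19.0, Ddit3 10.1 to 13.8, Atf5 10.5 to 13.1 and Psat1 6.52 to 9.16. The levels per kb of Ddit3 overlapped with those of both Herpud1 and Atf5. Chac1 (1.91 to 2.31) and Trib3 (1.41 to 1.99) were lowest, overlapped with each other, and had 41 to 110 counts in a library, so that their fold changes are the least precise.

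**Figure D1:**
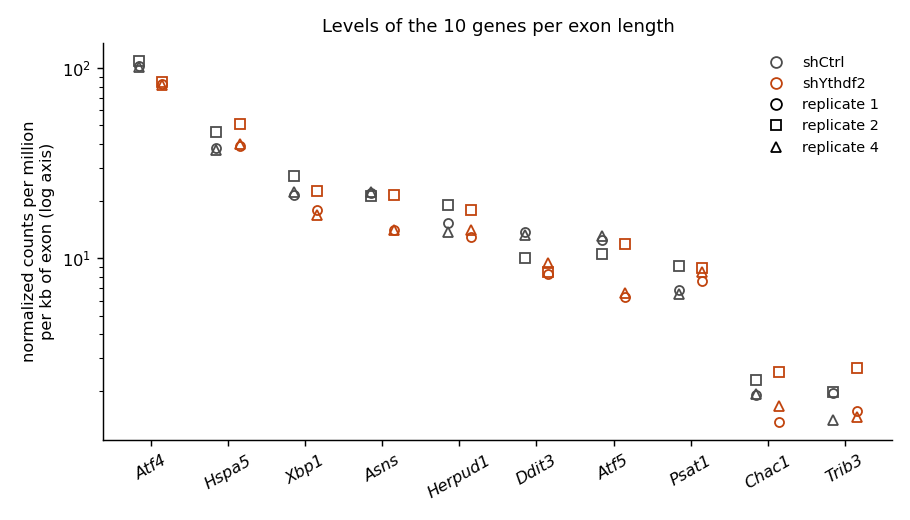
Level of each of the 10 genes in every library, as normalized CPM per kb of exon on a log axis, with genes ordered by their mean in shCtrl. Symbols are replicates and colours are groups. Atf4 lies at 82.9 (shYthdf2 mean) to 104 (shCtrl mean), and Chac1 and Trib3 lie near 2.05 and 1.79 in shCtrl.

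After YTHDF2 KD, 0 of the 10 genes had an adjusted p under 0.05 in edgeR's quasi-likelihood test, where 0.604% of the 17214 genes tested did (0.244% higher and 0.360% lower). DESeq2, which called 7.52% of the genes it tested, and limma-voom, which called 0.139%, also called 0 of the 10. Atf4 and Ddit3 had an unadjusted p under 0.05, both lower, against 20.1% of all genes in either direction (9.50% higher and 10.6% lower). These 2 were also the only members whose libraries did not overlap between the groups, which held for 25.9% of all genes tested (12.6% higher and 13.4% lower). Of the 10 genes, 7 had lower and 3 higher estimates, with a median log2 fold change of -0.22. Of all genes tested, 8463 had lower and 8751 higher estimates, with a median of 0.01. The members' median was -0.13 and -0.14 without shYthdf2 replicate 1 or 4, -0.12 without shCtrl replicate 2 and -0.39 without shYthdf2 replicate 2. In a two-sided exact permutation test, 3 libraries against 3 cannot give a p below 0.1, which Atf4 and Ddit3 reached.

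**Figure D2:**
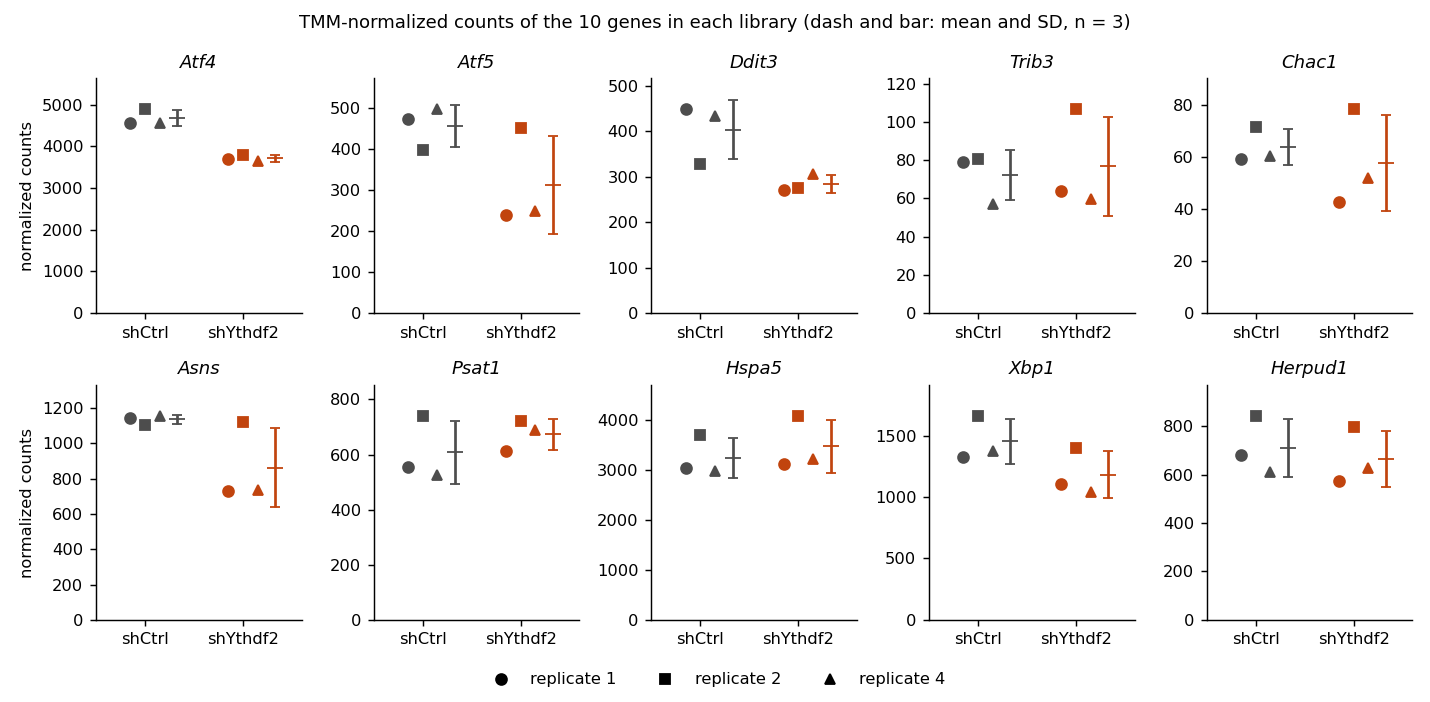
Normalized counts of each gene in the 3 shCtrl and 3 shYthdf2 libraries, with symbols for the replicate number and the mean and SD (n = 3) beside the points. Axes start at 0 and differ between genes. The groups are apart in Atf4 and Ddit3, and in Atf5 and Asns the shYthdf2 library of replicate 2 lies with the shCtrl libraries.

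Atf4 (ENSMUSG00000042406, chromosome 15 from 80255184 to 80257541), the transcription factor at the centre of the response, had 4575, 4900 and 4562 normalized counts in shCtrl replicates 1, 2 and 4 and 3695, 3804 and 3647 in shYthdf2. The spread within each group was small, and the groups did not overlap. On average shCtrl had 4679 ± 191 (SD, n = 3), and shYthdf2 had 3715 ± 80.1 (SD, n = 3), or 79.4% of it. The log2 fold change was -0.33 (standard error 0.09, 95% interval -0.53 to -0.13, unadjusted over genes), and the edgeR adjusted p = 0.106. The differences within replicates 1, 2 and 4 were -0.31, -0.37 and -0.32 on the log2 scale, so that Atf4 differed alike in all pairs. Among 12561 other genes with at least 50 normalized counts on average, those nearest to Atf4 in pattern over the 6 libraries were Flcn, Uck1 and Ppm1h, at Euclidean distances of 0.059, 0.066 and 0.069 on the centred log2 scale.

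Ddit3 (ENSMUSG00000025408, chromosome 10 from 127290774 to 127296288) encodes CHOP, a transcription factor induced by ATF4 that promotes cell death under lasting ER stress. Its normalized counts were 449, 329 and 433 in shCtrl replicates 1, 2 and 4, and shYthdf2 had 271, 274 and 307. The groups did not overlap, with shCtrl replicate 2 closest to the shYthdf2 libraries. On average shCtrl had 403 ± 65.3 (SD, n = 3), and shYthdf2 had 284 ± 19.8 (SD, n = 3). The log2 fold change was -0.51 (95% interval -0.88 to -0.13, edgeR adjusted p = 0.146). The differences within the replicate numbers were -0.73, -0.26 and -0.50. Ddit3 shares 68 bases of exon with Mars on the other strand, which had 1677 to 2414 counts in a library and a log2 fold change of -0.14. Whether reads were counted by strand is not given in the sources used here.

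Atf5 (ENSMUSG00000038539, chromosome 7 from 44812256 to 44816658) encodes a bZIP factor related to ATF4, and its mRNA is likewise translated under stress. It had 473, 397 and 497 normalized counts in shCtrl replicates 1, 2 and 4 against 238, 450 and 249 in shYthdf2. In replicates 1 and 4 the shYthdf2 library was far below the control library, while in replicate 2 it was the higher of the pair. The log2 differences were -0.99, 0.18 and -0.99, and the pooled log2 fold change was -0.54 (standard error 0.26, 95% interval -1.14 to 0.06, edgeR adjusted p = 0.290). Nup62, on the other strand, shares 82 bases of exon with Atf5 and had 364 to 734 counts in a library (log2 fold change -0.27). Of the other overlapping genes, Gm4189 (with Ddit3) and Il4i1 (with Atf5) had 1 to 11 counts in a library. Gm15890 (with Herpud1) and the processed pseudogene Gm3329 (with Psat1) had 0 to 3.

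Asns (ENSMUSG00000029752, chromosome 6 from 7675169 to 7693254), which makes asparagine and is a classical ATF4 target with the CARE shown above, differed in the same replicates. Its normalized counts were 1146, 1106 and 1156 in shCtrl and 731, 1122 and 735 in shYthdf2, in the order of replicates 1, 2 and 4. The 3 control libraries were close together, and the shYthdf2 library of replicate 2 lay among them. The log2 differences within replicates were -0.65, 0.02 and -0.65, with a pooled log2 fold change of -0.40 (standard error 0.18, 95% interval -0.81 to 0.02, edgeR adjusted p = 0.264). Without shYthdf2 replicate 2, Atf5 (-0.90, adjusted p = 0.0343) and Asns (-0.63, adjusted p = 0.0291) were the members past the threshold, where 4.70% of all genes tested were.

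Psat1, Trib3 and Chac1, also known as ATF4 targets, had estimates closer to 0 than Asns. Psat1 (ENSMUSG00000024640, chromosome 19 from 15904678 to 15947337), an enzyme of serine synthesis, had 554, 740.4 and 527 normalized counts in shCtrl replicates 1, 2 and 4 and 612, 722 and 688 in shYthdf2. These ranges overlapped, and the log2 fold change was 0.15 (standard error 0.16, 95% interval -0.22 to 0.52). It was 0.32 without shCtrl replicate 2, 0.082 and 0.053 without shCtrl replicate 1 or 4, and 0.094 without shYthdf2 replicate 2. Trib3 (ENSMUSG00000032715, chromosome 2 from 152337422 to 152344032), a pseudokinase that inhibits ATF4 and CHOP, had 78.9, 80.4 and 57.1 normalized counts in shCtrl and 63.8, 107 and 59.4 in shYthdf2. Its log2 fold change of 0.09 (standard error 0.30, 95% interval -0.61 to 0.78) was -0.23 without shYthdf2 replicate 2, -0.060 without shCtrl replicate 4 and -0.16 without both replicate 2 libraries. Chac1 (ENSMUSG00000027313, chromosome 2 from 119351229 to 119354381), which degrades glutathione, had 59.4, 71.7 and 60.4 against 42.9, 78.5 and 52.0 normalized counts, and the log2 fold change was -0.14 (95% interval -0.80 to 0.52), or 0.033 without shYthdf2 replicate 1. For Trib3 and Chac1 the highest value of all was that of the shYthdf2 library of replicate 2. The interval of each of these 3 genes takes in both falls and rises, and the edgeR adjusted p-values were 0.636, 0.898 and 0.816.

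Of the genes of the unfolded protein response, Hspa5 (ENSMUSG00000026864, chromosome 2 from 34771970 to 34777547) had 3038, 3697 and 2990 normalized counts in shCtrl replicates 1, 2 and 4 and 3124, 4091 and 3224 in shYthdf2. Replicate 2 was the higher library in both groups, and the groups overlapped. The log2 fold change was 0.10 (standard error 0.14, 95% interval -0.23 to 0.43, edgeR adjusted p = 0.727), and it was -0.032 without shYthdf2 replicate 2. The genes nearest to Hspa5 in pattern were Wbp1, Wrap73 and Zc4h2, at distances of 0.039, 0.045 and 0.050.
Xbp1 (ENSMUSG00000020484, chromosome 11 from 5520659 to 5525893), which encodes the transcription factor downstream of IRE1, had 1329, 1663 and 1374 against 1109, 1399 and 1044 normalized counts. In every pair the shYthdf2 library was the lower (log2 differences -0.26, -0.25 and -0.40), although the groups overlapped through replicate 2. The log2 fold change was -0.30 (standard error 0.15, 95% interval -0.64 to 0.05, edgeR adjusted p = 0.308), and it was -0.19 without shCtrl replicate 2. Herpud1 (ENSMUSG00000031770, chromosome 8 from 94386438 to 94395377), a membrane protein of ER-associated degradation, had 684, 844 and 610 against 573, 796 and 627. Its log2 fold change was -0.10 (standard error 0.17, 95% interval -0.50 to 0.31, edgeR adjusted p = 0.788), and 0.041 without shCtrl replicate 2.

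**Figure D3:**
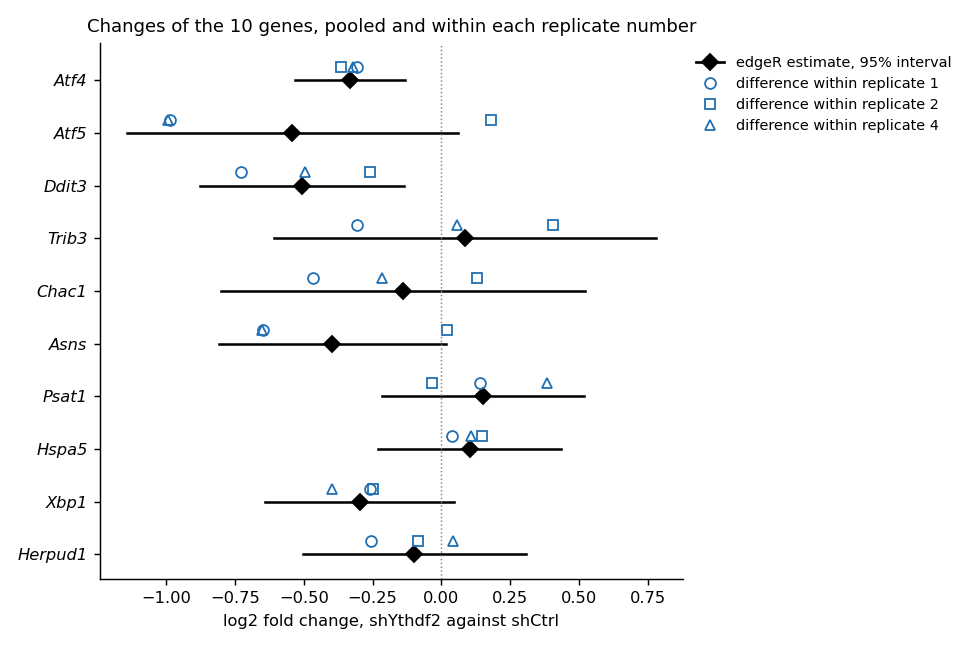
Log2 fold change of each gene after YTHDF2 KD, with the edgeR estimate and its 95% interval in black and the difference between the libraries of the same replicate number as open symbols. For Atf4 the 3 pairs lie within -0.37 to -0.31, and for Atf5 and Asns replicates 1 and 4 lie at -0.99 and -0.65 and replicate 2 at 0.18 and 0.02.

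The calls depended on how replicate 2 was treated. With a term for replicate 2, Atf4 (adjusted p = 0.0103), Ddit3 (0.0284) and Xbp1 (0.0200) passed the edgeR threshold, 3 of 10 genes all lower, where 22.1% of all genes tested passed (11.6% lower). Without both replicate 2 libraries, 6 of the 10 passed, with Atf4, Atf5, Ddit3, Asns and Xbp1 lower and Psat1 higher, where 52.7% of all genes tested passed. Without shCtrl replicate 2 the members called were Atf4 (adjusted p = 0.0319) and Ddit3 (0.0147), beside 18.3% of all genes. A share of members close to that of all genes is not a result about the members. With the replicate number as a block 0 of 10 passed, and the smallest adjusted p was 0.0572 for Atf4.

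To see whether the rest of the pathways moved alike, 100 other genes in 8 lists were counted, of which 97 were tested. Fgf21, Ern2 and Cdnf had too few counts. Of the 97, 66 had lower and 31 higher estimates after YTHDF2 KD, with a median log2 fold change of -0.09 and an all-gene median of 0.01. The gene past the adjusted threshold was Jdp2, which fell (1 of 97, against 0.604% of all genes tested), and at an unadjusted p under 0.05 there were 18 lower and 3 higher, where 10.6% of all genes tested were lower and 9.50% higher. With the replicate block, Jdp2 (adjusted p = 0.0477), Bbc3 (0.0450) and Ube2j1 (0.0489) passed, all lower, where 1.35% of all genes tested passed.

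Upstream, 4 of 10 genes for the eIF2alpha kinases, eIF2alpha and its phosphatase were higher and 6 lower (median log2 fold change -0.09). Ppp1r15a, which encodes GADD34, the stress-induced subunit that directs the phosphatase to eIF2alpha, had 1048, 484 and 969 normalized counts in shCtrl replicates 1, 2 and 4 and 423, 364 and 374 in shYthdf2. The groups did not overlap, and the log2 fold change was -1.11 (standard error 0.28, edgeR adjusted p = 0.0988). Eif2ak3 (PERK) was higher in all pairs, at a log2 fold change of 0.17 (edgeR adjusted p = 0.365).

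Among the amino acid transporters, 9 of 10 estimates were lower, with a median log2 fold change of -0.27, and 5 had an unadjusted p under 0.05, all lower (10.6% of all genes tested). Slc7a1, an arginine and lysine carrier, had 1317, 745 and 1362 normalized counts in shCtrl replicates 1, 2 and 4 and 548, 556 and 539 in shYthdf2, a log2 fold change of -1.06 (edgeR adjusted p = 0.0720). For Slc3a2, the heavy chain of several carriers, the log2 fold change was -0.42 (edgeR adjusted p = 0.113). Slc7a3, named after its values were seen for having the largest fold, was at 184 and 172 normalized counts in shCtrl replicates 1 and 4, at 26.2 in shCtrl replicate 2 and at 25.1 to 39.8 in shYthdf2 (log2 fold change -1.98, edgeR adjusted p = 0.159). For Slc7a1, Slc7a3 and Ppp1r15a, shCtrl replicate 2 was thus the lowest control, as it was for the sum of the immediate-early genes, whose part in these values was not tested. All 13 aminoacyl-tRNA synthetase genes, which supply charged tRNAs and include ATF4 targets, had lower estimates, from -0.32 to -0.02 (median -0.15). An unadjusted p under 0.05 was reached by 0 of the 13, with the smallest for Nars (log2 fold change -0.24, edgeR adjusted p = 0.292) and Eprs (-0.22, adjusted p = 0.299). Between the replicate 2 libraries only 5 of the 13 were lower, against 13 and 12 in replicates 1 and 4. Of 12 genes for serine, proline and one-carbon enzymes, 7 had higher estimates (median 0.10), where 8751 of all 17214 genes tested did. Their median differences within replicates 1, 2 and 4 were 0.03, -0.01 and 0.04. Aldh18a1, a proline synthesis enzyme, was at -0.32 (edgeR adjusted p = 0.127) and Mthfd1l, of mitochondrial folate metabolism, at -0.25 (adjusted p = 0.293).

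Of the stress effectors of the ATF4 arm, 9 of 14 were lower, with a median log2 fold change of -0.27. Jdp2, a repressor that pairs with Jun proteins, had 312, 317 and 325 normalized counts in shCtrl replicates 1, 2 and 4 and 122, 160 and 97.6 in shYthdf2. It fell, with lower values in every pair, a log2 fold change of -1.33 and an edgeR adjusted p = 0.0496. The call of Jdp2 was lost in limma-voom, where 0.139% of all genes tested were called. It was also lost when replicate 1 or 4 of either group was left out. Those fits called 0 of all genes tested, so that this loss is not particular to Jdp2. Bbc3, which encodes the cell death protein PUMA, had 893, 969 and 916 against 449.5, 609 and 461, a log2 fold change of -0.87 (edgeR adjusted p = 0.0527). Jdp2 belongs to the AP-1 family and Bbc3 is also a p53 target. The summed immediate-early genes, which include AP-1 members, were also lower in all shYthdf2 libraries. For 5 of these 8 genes the groups did not overlap, against 25.9% of all genes tested. Among the controls their sum was lowest in replicate 2 (654 CPM, against 2644 and 2584). Jdp2 (317) and Bbc3 (969) did not have their lowest control value there. The part of the immediate-early genes in these values was not tested.

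The 16 tested ER chaperones and folding enzymes split into 8 higher and 8 lower, with a median log2 fold change near 0. Of these, Pdia4, a disulfide isomerase, had 524, 604 and 494 normalized counts in shCtrl replicates 1, 2 and 4 and 339, 335 and 414 in shYthdf2 (log2 fold change -0.58, edgeR adjusted p = 0.0974), and the chaperone gene Hyou1 was at -0.19 (adjusted p = 0.312). Among sensors and their proteases 6 of 8 were lower (median log2 fold change -0.17). Mbtps2, which encodes the site-2 protease that releases ATF6, was at 0.48 (edgeR adjusted p = 0.0986) and Creb3, a membrane-bound factor cut by the same proteases, at -0.37 (adjusted p = 0.201). Of 14 genes for ER-associated degradation and translocation, 10 were lower (median -0.10). Ube2j1, its ubiquitin-conjugating enzyme, had a log2 fold change of -0.46 (edgeR adjusted p = 0.0679), with differences of -0.49, -0.43 and -0.45 in the pairs, and Erlec1, an ER lectin, was at 0.35 (adjusted p = 0.149).

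**Figure D4:**
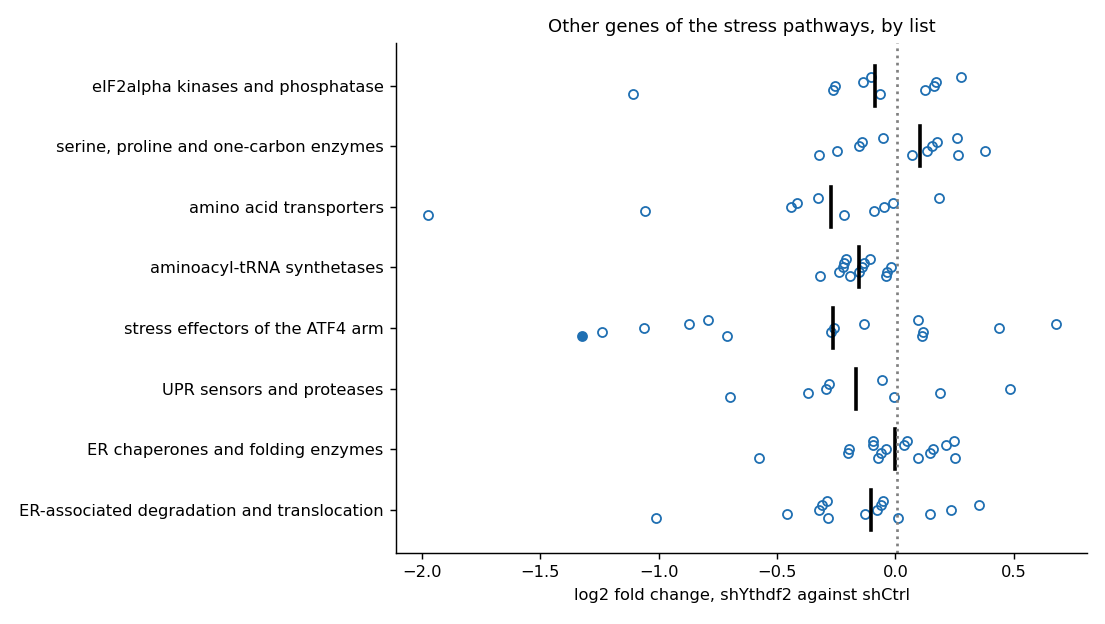
Log2 fold changes of the 97 tested genes of the other pathway lists, 1 point for each gene, with the median of each list as a bar and the median of all genes tested (0.01) as a dotted line. The filled point is Jdp2, the gene with an adjusted p under 0.05. The 13 synthetase genes all lie below 0, and the chaperones lie on both sides.

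Within the pairs, the median log2 difference of the 10 members was -0.31 in replicate 1, -0.01 in replicate 2 and -0.27 in replicate 4. For the 97 other pathway genes these medians were -0.17, -0.01 and -0.16, and for all genes tested they were 0.01, 0.00 and 0.00. Of the 10 members, 3 (Atf4, Ddit3 and Xbp1) were lower in all 3 pairs (against 26.9% of all genes tested), and 3 (Atf5, Chac1 and Asns) were lower in replicates 1 and 4 but not in replicate 2 (against 13.7%).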

How the data were processed

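The deposited table holds read counts per gene as whole numbers. Per the study's methods, the authors filtered reads, aligned them with HISAT plus TopHat2 on GRCm38 and used HTSeq for the counts, while the submitters' processing notes name mm9 and Bowtie 0.12.2. The kit is NEBNext Ultra in the methods and TruSeq in the labels. Of 53421 genes, 52489 matched the GENCODE M21 annotation (GRCm38).

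Counts were tested with edgeR 4.0.16 (R 4.3.3; TMM, filterByExpr with minimum count 10 and total 15, quasi-likelihood test, Benjamini-Hochberg adjustment over the 17214 genes tested; 36207 removed). Normalized counts are at a common library size. Standard errors are the log2 fold change over the root of F, and differences within replicates use log2 of the normalized count + 0.5. Totals were 17246821 to 21546595 counts, which limits genes with few counts most. DESeq2 1.42.0, limma-voom (limma 3.58.1), other scalings and filters, blocks and left-out libraries were alternatives. The tests were also run on simulated counts with known changes. Those counts were drawn independently for each library, without the pairing or the difference of replicate 2 seen here. That run therefore cannot show how the tests behave on such data. Nothing states that the libraries came from separate cultures beyond the methods' wording of biological replicates, so p-values may measure technical spread.

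Deviations from group means correlated over genes between libraries of the same replicate number by 0.252, 0.360 and 0.322 (replicates 1, 2 and 4). All exceed 0.1, and on these data alone the numbers were taken as pairs. Between shYthdf2 replicate 1 and shCtrl replicate 4 the correlation was 0.126, and between shYthdf2 replicate 4 and shCtrl replicate 1 it was 0.101. The mark of 0.1 thus does not tell replicates 1 and 4 apart. The remaining unlike numbers gave -0.317 to -0.238.

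The members, lists and tests were chosen with earlier results of these data known. Besides the members and Ythdf2, the genes named are those past the adjusted threshold in each list, filled up to 2 by the smallest p, the 3 nearest patterns to Atf4 and Hspa5, and overlapping genes. Slc7a3 was added after its values were seen. Plots were drawn with Python 3.11.15 and matplotlib 3.10.9.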

Additional observations from a re-analysis of the deposited data

How the results depend on the processing

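Among the 10 members, 0 passed under the other scalings, filters, DESeq2, limma-voom and the replicate block. The same held when replicate 1 or 4 of either group was left out. Those fits called 0 of all genes tested, so they cannot tell the members from other genes. The number of members called was 3 with a term for replicate 2 and 6 without both replicate 2 libraries. Over the fits without 1 library it was 0 to 2. The other pathway genes called numbered 1 of the 97 tested in the main fit. They numbered 9 with DESeq2, 0 with limma-voom, 5 without a filter and 2 with at least 10 counts in every library. With the replicate block there were 3, and with a term for replicate 2 there were 26. Without both replicate 2 libraries there were 62, and without 1 library 0 to 23. Over all genes the count was 104 (0.604% of those tested), and 1154 with DESeq2 (7.52%) and 24 with limma-voom (0.139%). It was 639 without a filter (1.98%), 131 with at least 10 counts in every library (0.862%) and 232 with the replicate block (1.35%). With a term for replicate 2 it was 3799 (22.1%), and without both replicate 2 libraries 9186 (52.7%). Without 1 library it was 0 to 3239 (at most 18.3%). The counts of members and of pathway genes have to be read beside these shares. A count near them is not a result about those genes. The cause of the differences between the fits was not tested. The sign of Trib3 (0.09) turned to -0.16 without both replicate 2 libraries and to -0.23 and -0.060 without shYthdf2 replicate 2 or shCtrl replicate 4. Leaving out 1 library gave Trib3 -0.23 to 0.24, Chac1 -0.43 to 0.033 (reversed without shYthdf2 replicate 1), Hspa5 -0.032 to 0.21 (without shYthdf2 replicate 2) and Herpud1 -0.25 to 0.041 (without shCtrl replicate 2). For Psat1 the range was 0.053 to 0.32 and for Xbp1 -0.44 to -0.19. The estimates of Atf4 lay between -0.36 and -0.30 in all 15 alternatives. Trib3 and Chac1, with the fewest counts, were the least precise.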
